A study of Mus musculus with 3 samples.

Results

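Transcripts of 39 Polycomb and Trithorax group genes were compared between Dido3deltaCT mutant and wild type mouse embryoid bodies. The genes were listed by name, and a probe was taken as theirs where its gene name on the array matched exactly. Of the 39 listed genes, 38 had a probe (Setd1b had none by that name), and 36 were tested among 15428 genes. Cbx7 and Cbx8 were too dim for the test. Embryoid bodies are aggregates of differentiating embryonic stem cells, and here both genotypes were grown in suspension for 10 days without LIF, the cytokine that holds mouse stem cells in self-renewal. The wild type group consisted of 3 control samples, and the Dido3deltaCT group of 3 samples in which the Dido3 protein, a product of the Dido1 locus, lacks its C-terminal part. Each of 3 dual-colour arrays paired 1 mutant with 1 wild type sample. The labels call the samples biological replicates, but whether they came from separate lines or from repeat cultures of 1 line was not established here, so p-values may measure only the spread between cultures and arrays. The dye of the mutant sample was Cy3 on 2 arrays (replicates 1 and 3) and Cy5 on the other (replicate 2), which means that replicate 2 and the dye orientation cannot be told apart.

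Polycomb proteins work in 2 main chromatin complexes. Polycomb repressive complex 2 (PRC2) methylates histone H3 at lysine 27, and Polycomb repressive complex 1 (PRC1) carries the E3 ligase that ubiquitinates histone H2A. Together they keep developmental regulator genes silent in embryonic stem cells and in lineages that do not use them. Trithorax group proteins oppose this silencing, among them the SET1 and MLL complexes, which methylate histone H3 at lysine 4. Subunits of both systems are exchanged as stem cells differentiate, for example between the PCGF or CBX proteins of PRC1.

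The promoters of 3 of these genes are shown because their transcripts had ratios of over 2-fold in opposite directions, Suz12 and Phc1 on the higher side in the mutant and Bmi1 on the lower. Each is the 250 bases before the RefSeq transcript start on GRCm38.p6, written 5′ to 3′ on the gene's strand. Capitals mark matches on either strand to the GC box GGGCGG, the E-box CACGTG, the CCAAT box CCAAT, the ETS motif CCGGAAG or the octamer ATGCAAAT. Overlapping copies of the GC box were each counted, and copies of different motifs did not overlap in these windows.
Suz12, chr11:79992856-79993105, plus strand: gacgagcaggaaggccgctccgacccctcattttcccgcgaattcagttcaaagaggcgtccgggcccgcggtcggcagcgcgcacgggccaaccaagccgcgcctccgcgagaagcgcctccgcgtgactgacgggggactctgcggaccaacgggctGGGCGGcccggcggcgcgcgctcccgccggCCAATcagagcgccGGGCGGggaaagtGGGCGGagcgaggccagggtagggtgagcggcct
Phc1, chr6:122340228-122340477, minus strand: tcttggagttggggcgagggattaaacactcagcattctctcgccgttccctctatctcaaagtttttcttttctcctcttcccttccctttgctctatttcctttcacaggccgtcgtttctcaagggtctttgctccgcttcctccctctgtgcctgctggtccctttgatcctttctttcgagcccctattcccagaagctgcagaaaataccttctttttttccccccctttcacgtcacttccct
Bmi1, chr2:18676768-18677017, plus strand: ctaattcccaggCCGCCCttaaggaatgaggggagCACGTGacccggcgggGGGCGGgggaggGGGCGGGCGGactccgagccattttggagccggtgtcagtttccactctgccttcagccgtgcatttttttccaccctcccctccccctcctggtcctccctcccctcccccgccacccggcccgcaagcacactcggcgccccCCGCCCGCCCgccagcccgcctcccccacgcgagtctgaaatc
The Suz12 window held 37 CpG dinucleotides, 3 GC boxes and 1 CCAAT box, and its GC content was 73.6%. The Bmi1 window held 21 CpG dinucleotides, 6 GC boxes and 1 E-box. The Phc1 window differed from both, with 8 CpG dinucleotides, a GC content of 49.6% and no match to any of the 5 motifs. Of the 39 genes, 32 were in the RefSeq promoter table, with 48 windows; Pcgf1, Kdm6b, Cbx2, Rybp, Ash2l, Setd1b and Ash1l were not matched. The median window of these genes held 20.5 CpG dinucleotides (range 1 to 43), against 6 over all 32851 windows. The GC box was present in 66.7% of their windows and in 32.7% of all windows, the E-box in 16.7% against 6%, and the CCAAT box in 37.5% against 33.8%. The ETS motif was present in 4.2% against 6.9%, and the octamer in 2.1% against 1.6%. Windows of the same gene can overlap, as those of Men1 do, so the same motif copy can be counted in several windows. These matches describe letters in the windows, and binding was not measured.

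No member passed the test in either direction. Log2 ratios of mutant over wild type were tested against 0 with limma and Benjamini-Hochberg adjustment over all genes, at an adjusted p of 0.05. By that rule 0.298% of all genes passed, 0.207% on the higher and 0.0907% on the lower side (32 and 14 genes, against 63 and 46 when ratios were also scaled between arrays). At an unadjusted p of 0.05, 8 members lay on the higher side (11.4% of all genes did) and 4 on the lower (11.3% of all genes). At an adjusted p of 0.1, 2 members lay on the higher side (Suz12 and Ash2l; 4.23% of all genes) and 1 on the lower (Bmi1; 3.82% of all genes). The following values are therefore descriptions of 3 array pairs. In bulk RNA, fewer cells of a type and less RNA per cell cannot be told apart, for any of them.

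A mean ratio of 2-fold or more, with the same sign on all 3 arrays, was seen for Phc1, Jarid2, Phf19, Suz12, Ash2l and Mtf2 on the higher side. These are 6 of 36 members (16.7%), where 6.99% of all genes met the same rule. Phf19 was tested through its level in the mutant, since it was well above background in 2 of 3 wild type samples. Where both genotypes had to be above background, 5 of 32 members (15.6%) were on the higher side, against 6.57% of all genes, and 2 (6.25%) on the lower, against 5.64%. On the lower side it was seen for Bmi1 and Phc2, 2 of 36 members (5.56%), against 6.7% of all genes. With median centring in place of loess normalization, 2 members (5.56%) were past 2-fold on each side. Of all genes, 4.51% were then on the higher and 11.5% on the lower side. Mtf2 lay just inside the limit at a log2 ratio of 1.02, and Rybp (1.00 after rounding, 1.99-fold) and Dpy30 (0.97) lay just outside it. Ratios had 1 sign on all 3 arrays for 23 members, 17 above and 6 below 0, a share of 63.9% against 44.3% of all genes. The mutant and wild type levels did not overlap for 9 members with the mutant higher and for 4 with the mutant lower, where 11% and 10.3% of all genes met these rules. The median log2 ratio of the members was 0.29 (0.20, 0.29 and 0.31 on replicates 1, 2 and 3), against 0.04 over all genes tested (0.01, −0.03 and 0.03). Median centring moved both, to 0.03 for the members and to −0.22 for all genes, so that the members stood 0.25 above all genes with it and 0.26 without it.

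**Figure D1:**
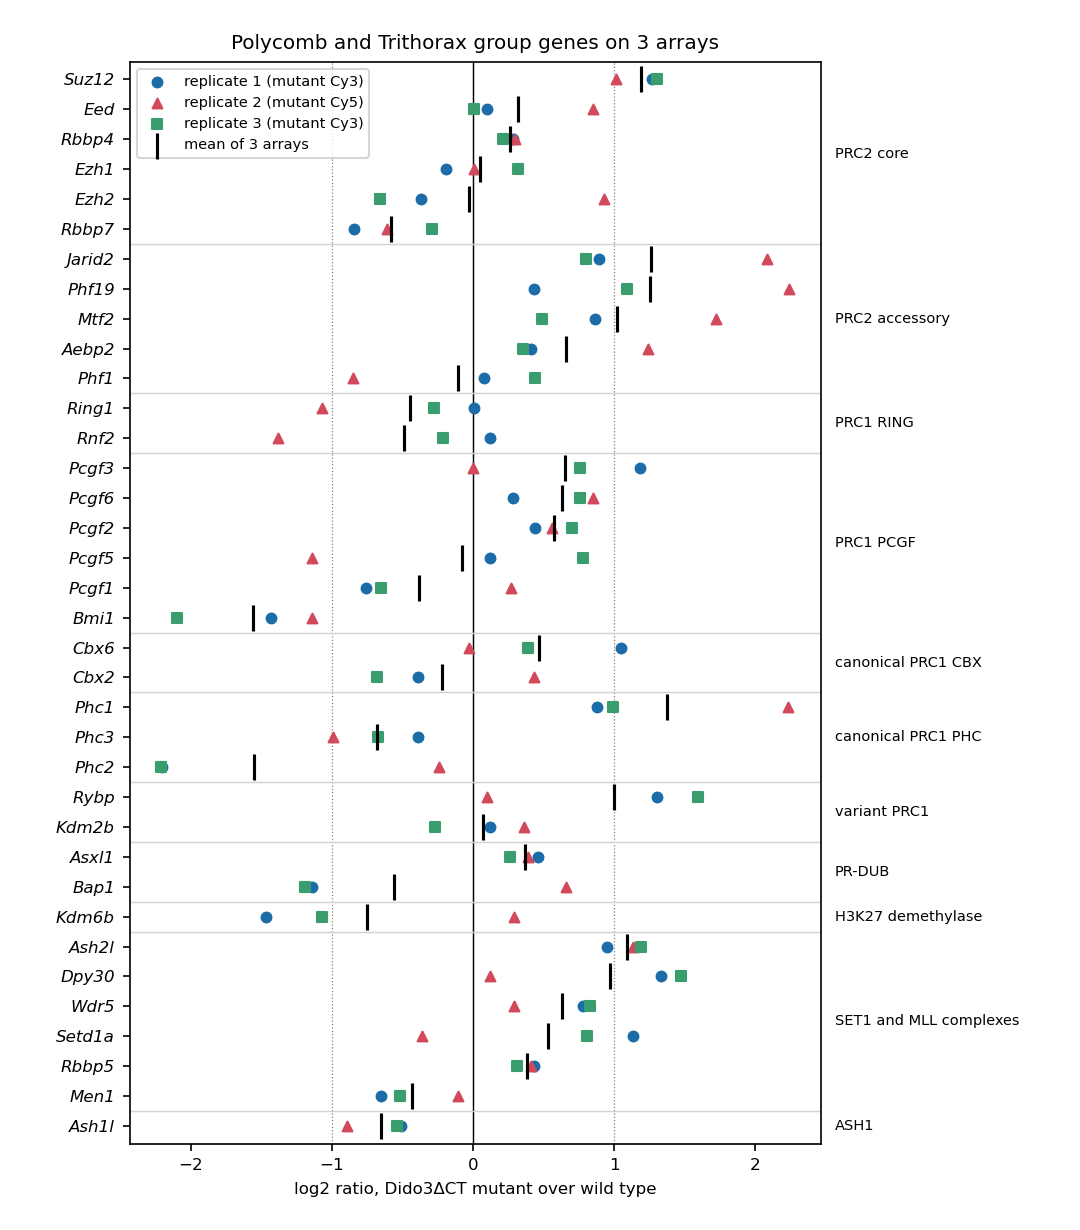
Log2 ratio of mutant over wild type (horizontal axis) of each of the 36 tested members, grouped by role, on replicates 1, 2 and 3 (points) with the mean (bar). Dotted lines mark 2-fold. Suz12, Ash2l and Bmi1 lay past 2-fold in their mean and had 3 ratios of 1 sign, while the triangles of replicate 2 often stood apart from the other points, as for Ezh2 and Bap1.

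Of the PRC2 core, Suz12 had a ratio past 2-fold, and the other 5 subunits had means between −0.58 and 0.32. PRC2 is built on the methyltransferase EZH2 or its paralogue EZH1, with SUZ12 as the scaffold, EED as the reader of the H3K27 methyl mark, and RBBP4 or RBBP7 as histone-binding subunits. The normalized log2 intensity of Suz12 was 13.87, 14.21 and 14.32 in the mutant samples of replicates 1, 2 and 3, and 12.60, 13.21 and 13.03 in the wild type samples. All mutant values lay above all wild type values. The log2 ratios of 1.27, 1.01 and 1.30 gave a mean of 1.19 ± 0.24 (SE, n = 3), a 2.28-fold difference, with an adjusted p of 0.0763 by limma. Its probe lies at chr11:79847251-79847310 on mm9; which exon or other part of the transcript the probes cover was not analysed here. Without replicate 2 the log2 ratio was 1.28 and the adjusted p 0.00457. Without replicate 1 or 3 the adjusted p was 0.498 or 0.596. Leaving out replicate 2 also placed 25.6% of all genes past the test on the higher side and 21.7% on the lower. Leaving out replicate 1 or 3 let no member pass.

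The catalytic subunits did not share this pattern. Ezh2 stood at 12.53, 11.89 and 13.08 in the mutant and 12.90, 10.96 and 13.74 in the wild type, with log2 ratios of −0.37, 0.93 and −0.66. The groups overlapped, and replicate 2 had the opposite sign to the others. The mean of −0.03 had a 95% interval from −1.02 to 0.95, so the arrays allow about a 2-fold difference either way. Its sign turned to 0.21 with a dye term, to 0.14 without replicate 1 and to 0.28 without replicate 3. For Ezh1 the mean log2 ratio was 0.05, with an interval from −0.59 to 0.68, and it was −0.29 with median centring. Eed had ratios of 0.10, 0.85 and 0.01, a mean of 0.32, in overlapping groups.

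The histone-binding paralogues lay on opposite sides of 0. Rbbp7 had log2 ratios of −0.84, −0.61 and −0.29, with a mean of −0.58 ± 0.25 (SE, n = 3) and an adjusted p of 0.256 by limma. Its mutant levels of 15.04, 15.43 and 15.15 all lay below its wild type levels of 15.88, 16.04 and 15.44. Rbbp4 had ratios of 0.28, 0.30 and 0.21, but its other tested probe gave −0.51 ± 0.07 (SD, n = 3), so the direction depended on the probe. It was 0.00 with median centring.

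The accessory subunits of PRC2 had a median log2 ratio of 1.02 over 5 genes, against 0.04 over all genes. Of the 5, 3 (Jarid2, Phf19 and Mtf2) were past 2-fold on the higher side, where 6.99% of all genes were. Which of them passed depended on the processing. With median centring their log2 ratios were 0.98, 1.18 and 0.73, and in the authors' deposited values 1.24, 0.78 and 0.90. The accessory proteins help to bring PRC2 to its sites or adjust its activity. JARID2 and AEBP2 belong to one form of the complex, PRC2.2, and the Polycomb-like proteins PHF1, MTF2 and PHF19 to the other, PRC2.1. On replicate 2 the median over the 5 genes was 1.72, against 0.43 and 0.49 on replicates 1 and 3.

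Jarid2 had normalized log2 intensities of 14.68, 14.31 and 12.76 in the mutant and 13.80, 12.23 and 11.96 in the wild type. The groups overlapped, since both samples of replicate 3 were low, but the mutant was the higher sample of every pair. The ratios of 0.89, 2.08 and 0.80 gave a mean of 1.26 ± 0.35 (SE, n = 3; 2.39-fold), with an adjusted p of 0.127 by limma. Mtf2, which binds unmethylated CpG-rich DNA, stood at 13.15, 13.32 and 13.35 in the mutant and 12.29, 11.61 and 12.87 in the wild type, with no overlap. Its ratios of 0.86, 1.72 and 0.49 had a mean of 1.02 ± 0.33 (SE, n = 3) and an adjusted p of 0.162 by limma. The other Mtf2 probe gave 1.22 ± 1.41 (SD, n = 3).

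Phf19 was dimmer and was well above background in 2 of the 3 wild type samples. It stood at 7.09, 9.16 and 8.19 in the mutant and 6.67, 6.91 and 7.11 in the wild type, which overlapped. Its ratios of 0.43, 2.24 and 1.09 had a mean of 1.25 ± 0.41 (SE, n = 3) and an adjusted p of 0.166 by limma. Its log2 ratio was 2.38 with Agilent's processed signals, 0.90 with all spots in the background model and 0.78 in the authors' deposited values. Without replicate 2 the log2 ratios of Jarid2, Mtf2 and Phf19 were 0.85, 0.67 and 0.76, all below 2-fold, with adjusted p of 0.0151, 0.0384 and 0.0434. Their adjusted p by limma was 0.424, 0.583 and 0.325 without replicate 1, and 0.43, 0.528 and 0.576 without replicate 3. Aebp2 had ratios of 0.41, 1.24 and 0.35 (mean 0.66) without overlap of the groups, and 0.24 ± 0.09 (SD, n = 3) by its other probe. Phf1 differed from its Polycomb-like relatives, with ratios of 0.08, −0.85 and 0.44 and a mean of −0.11, which turned to 0.26 without replicate 2.

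**Figure D2:**
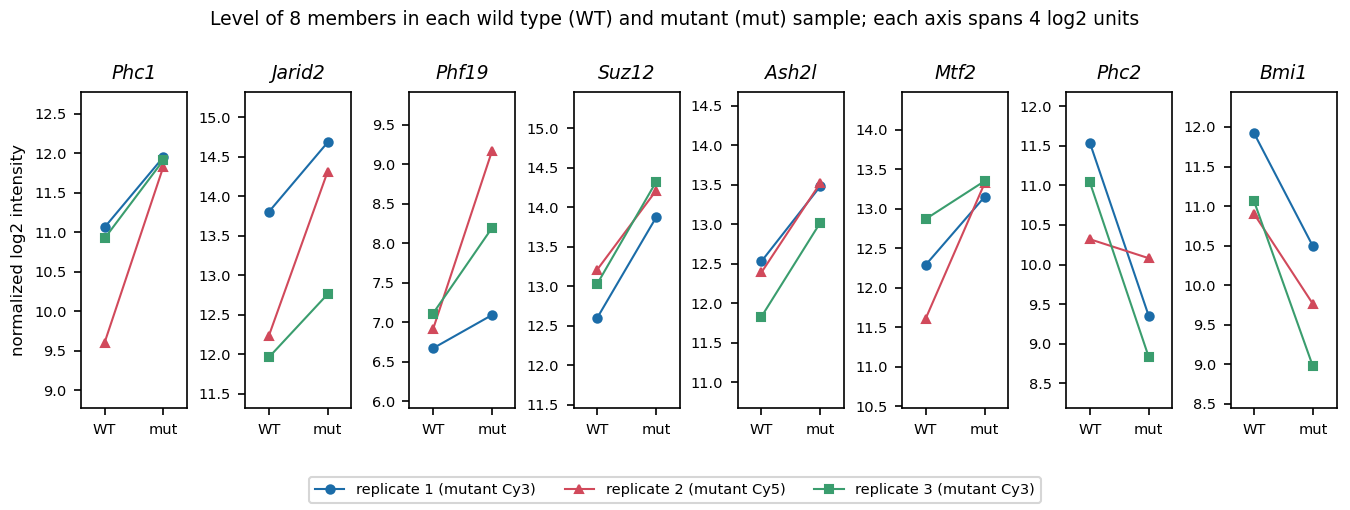
Normalized log2 intensity (vertical axis, 4 log2 units in each panel) of the 8 members past 2-fold in each wild type and mutant sample, with lines joining the samples of 1 array. Every line of Phc1, Jarid2, Phf19, Suz12, Ash2l and Mtf2 goes up to the mutant, and every line of Phc2 and Bmi1 goes down. Levels of different genes come from different probes and are not comparable.

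Both catalytic RING proteins of PRC1 had means below 0 that rested on replicate 2. RNF2 (RING1B) and RING1 (RING1A) are the E3 ligases of the complex. Rnf2 had log2 ratios of 0.12, −1.38 and −0.21, a mean of −0.49 ± 0.37 (SE, n = 3) and an adjusted p of 0.482 by limma. Ring1 had ratios of 0.01, −1.07 and −0.28, a mean of −0.45. Mutant and wild type levels overlapped for both, and without replicate 2 the means were −0.04 and −0.14.

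The PCGF subunits, which define the PRC1 subtypes, included Bmi1, which had the lowest mean ratio of the members together with Phc2. BMI1 (PCGF4) and PCGF2 (MEL18) are the alternative PCGF proteins of canonical PRC1. Bmi1 stood at 10.49, 9.76 and 8.97 in the mutant and 11.92, 10.90 and 11.06 in the wild type. All mutant values lay below all wild type values. The log2 ratios of −1.43, −1.14 and −2.10 gave a mean of −1.56 ± 0.29 (SE, n = 3), a 2.94-fold difference, with an adjusted p of 0.0714 by limma. Its probe at chr2:18607531-18607590 on mm9 and a second one at chr2:18607987-18608046 gave close values, the second −1.70 ± 0.76 (SD, n = 3). The ratio was −1.02 with all spots in the background model and −0.96 in the authors' deposited values, below 2-fold in the latter. Without replicate 2 it was −1.76, with an adjusted p of 0.0039. The adjusted p by limma was 0.325 without replicate 1 and 0.502 without replicate 3.

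Pcgf2 lay on the other side of 0, at 9.83, 10.26 and 10.22 in the mutant against 9.39, 9.70 and 9.52 in the wild type. The groups did not overlap, and the ratios of 0.44, 0.56 and 0.70 gave a mean of 0.57 ± 0.24 (SE, n = 3) with an adjusted p of 0.241 by limma. The other PCGF proteins belong to variant PRC1 complexes. Pcgf6, of the variant complex with MGA and E2F6, had ratios of 0.28, 0.85 and 0.76, a mean of 0.63. Pcgf3 had 1.18, 0.00 and 0.76, a mean of 0.65, with nearly touching groups (7.39 in the lowest mutant and the highest wild type sample). Pcgf1, of the complex with KDM2B and BCOR, had −0.76, 0.27 and −0.65, a mean of −0.38. Pcgf5 had 0.12, −1.14 and 0.78, a mean of −0.08 that turned to 0.45 without replicate 2.

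The 3 polyhomeotic genes, whose proteins carry the SAM domain by which canonical PRC1 polymerises, went different ways. Phc1 had the highest mean ratio of the tested members, by less than its SE over Jarid2, Phf19 and Suz12. It stood at 11.95, 11.83 and 11.91 in the mutant and 11.06, 9.60 and 10.92 in the wild type. The mutant values were close together and above all wild type values, among which replicate 2 was the lowest. The log2 ratios of 0.88, 2.23 and 0.99 gave a mean of 1.37 ± 0.36 (SE, n = 3), a 2.58-fold difference, with an adjusted p of 0.117 by limma. Its probe lies at chr6:122268043-122268102 on mm9. Without replicate 2 the ratio was 0.94 and the adjusted p 0.0113. The adjusted p by limma was 0.346 without replicate 1 and 0.404 without replicate 3.

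Phc2 showed the reverse. It stood at 9.35, 10.08 and 8.83 in the mutant and 11.54, 10.32 and 11.04 in the wild type, without overlap, though the samples of replicate 2 were near each other. The log2 ratios of −2.20, −0.24 and −2.21 gave a mean of −1.55 ± 0.47 (SE, n = 3), a 2.93-fold difference, with an adjusted p of 0.15 by limma. The probe lies at chr4:128430039-128430098 on mm9, and 2 further Phc2 probes were not well above background in any sample. Without replicate 2 the ratio was −2.20 and the adjusted p 0.00156. The adjusted p by limma was 0.601 without replicate 1 and 0.656 without replicate 3. The ratio of Phc2 was −0.97 with all spots in the background model and −0.90 in the authors' deposited values. Phc3 had ratios of −0.39, −0.99 and −0.67, a mean of −0.68 with an adjusted p of 0.206 by limma. Its groups overlapped, and it was well above background in 2 of 3 mutant samples.

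Of the CBX proteins, the chromodomain readers of the H3K27 methyl mark in canonical PRC1, neither tested gene had a ratio of 1 sign on all arrays. Cbx2 had −0.39, 0.43 and −0.68, with a mean of −0.22, and 0.02 without replicate 3. Cbx6 had 1.05, −0.03 and 0.39, with a mean of 0.47. Cbx7, the main CBX protein of mouse embryonic stem cells, was well above background in 2 of 3 samples of each genotype by either of its probes, which had mean ratios of 0.31 ± 1.70 and 0.13 ± 0.37 (SD, n = 3). Cbx8, another of these readers, was above background in 1 mutant and 2 wild type samples, with a ratio of −0.49 ± 0.95 (SD, n = 3). No difference in Cbx7 or Cbx8 could be read at this signal.

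Rybp, which joins variant PRC1 in place of a CBX protein, stood at 14.90, 13.91 and 14.75 in the mutant and 13.60, 13.82 and 13.16 in the wild type. The groups did not overlap, but the samples of replicate 2 were close to each other. The log2 ratios were 1.30, 0.10 and 1.59, with an adjusted p of 0.203 by limma and 0.00389 without replicate 2. That adjusted p was 0.736 without replicate 1 and 0.879 without replicate 3. Kdm2b, which recruits variant PRC1 to unmethylated CpG islands, had 0.12, 0.36 and −0.27, with a mean of 0.07. That sign turned to −0.20 with median centring and to −0.07 without replicate 2. Kdm6b (JMJD3), which removes the H3K27 methyl mark, had −1.47, 0.29 and −1.07, a mean of −0.75. It was well above background in 2 of 3 mutant samples, and its mean was −1.36 with Agilent's processed signals. That mean was −0.41 with all spots in the background model and −0.42 in the authors' deposited values. The H2A deubiquitinase gene Bap1 had −1.14, 0.66 and −1.19, a mean of −0.56. For Kdm6b and Bap1, replicate 2 had the opposite sign, and without it the ratios were −1.27 (adjusted p 0.00633) and −1.16 (adjusted p 0.00595). Their adjusted p by limma was 0.943 and 0.981 without replicate 1, and 0.937 and 0.997 without replicate 3. Asxl1, the partner of BAP1, had 0.46, 0.39 and 0.26, a mean of 0.37 in overlapping groups.

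On the Trithorax side, 5 of the 6 tested members that belong to the SET1 and MLL complexes had means above 0. So had 21 of all 36 members and 8088 of all 15428 genes. The median log2 ratio of the 6 SET1 and MLL members was 0.58, against 0.04 over all genes. Further subunits of the complexes are among 15 other Trithorax genes, whose median was also 0.04. WDR5, RBBP5, ASH2L and DPY30 form the core module that all these complexes share. Ash2l stood at 13.48, 13.52 and 13.02 in the mutant and 12.53, 12.39 and 11.83 in the wild type, without overlap. Its ratios of 0.95, 1.13 and 1.19 gave a mean of 1.09 ± 0.24 (SE, n = 3), a 2.13-fold difference, with an adjusted p of 0.0859 by limma. The probe lies at chr8:26927804-26927863 on mm9, and a second probe at chr8:26927352-26927411 gave 1.13 ± 0.45 (SD, n = 3). Without replicate 2 the adjusted p of Ash2l was 0.00844, and without replicate 1 or 3 it was 0.488 or 0.663.

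The other core subunits had smaller ratios. Dpy30 stood at 13.13, 12.76 and 13.73 in the mutant and 11.80, 12.64 and 12.27 in the wild type, without overlap. Its ratios of 1.33, 0.12 and 1.47 gave a mean of 0.97 with an adjusted p of 0.198 by limma, or 0.00378 without replicate 2. That adjusted p was 0.754 without replicate 1 and 0.868 without replicate 3. A second Dpy30 probe gave 0.50 ± 0.73 (SD, n = 3). Wdr5 had 0.78, 0.29 and 0.83, a mean of 0.63, and Rbbp5 had 0.43, 0.41 and 0.31, a mean of 0.38, both in overlapping groups. The methyltransferase gene Setd1a had 1.13, −0.36 and 0.81, a mean of 0.53. Men1, whose product menin is specific to 2 of the MLL complexes, was the exception below 0, with −0.65, −0.11 and −0.52 and a mean of −0.43. Ash1l, a methyltransferase of H3 lysine 36, had −0.51, −0.89 and −0.54, with a mean of −0.65 ± 0.24 (SE, n = 3) and an adjusted p of 0.209 by limma. Its groups did not overlap, but it was well above background in 2 of 3 mutant samples, so the mutant level was partly at background. The mean was −0.98 with Agilent's processed signals, −0.47 with all spots in the background model and −0.42 in the authors' deposited values.

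Of the paralogue pairs chosen for comparison, the 11 with both genes tested were compared by the difference of their log2 ratios on each array, which cancels any shift common to both. Other pairings were not compared. Phc1 minus Phc2 was 3.08, 2.48 and 3.20, with a mean of 2.92 ± 0.39 (SD, n = 3), close on all arrays although neither gene alone was. Bmi1 minus Pcgf2 was −1.87, −1.70 and −2.79, with a mean of −2.12 ± 0.59 (SD, n = 3). Phc1 minus Phc3 was 2.05 ± 1.03, Pcgf6 minus Pcgf1 1.01 ± 0.42 and Rbbp7 minus Rbbp4 −0.84 ± 0.32 (SD, n = 3 each), each with 1 sign on all arrays. Rbbp7 minus Rbbp4 depended on the Rbbp4 probe, and was −0.53 with the mean over probes. The other tested Rbbp4 probe had −0.54, −0.56 and −0.43, against −0.84, −0.61 and −0.29 for Rbbp7. By that probe the difference did not have 1 sign on all arrays. Mtf2 minus Phf1 also had 1 sign, at 0.77, 2.56 and 0.05, but with the widest spread of the 11 (1.13 ± 1.30, SD, n = 3). With 3 arrays the two-sided exact sign-flip permutation test cannot go below p = 0.25, which these 6 pairs reached, and 0.458 after Benjamini-Hochberg adjustment over 11 pairs. The differences were 2.13 and −1.38 with all spots in the background model and 1.96 and −1.29 in the authors' deposited values for Phc1 minus Phc2 and Bmi1 minus Pcgf2. Ezh2 minus Ezh1 was −0.08 ± 0.95 and Rnf2 minus Ring1 −0.04 ± 0.23 (SD, n = 3 each).

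More than 1 tested probe was available for 12 members, with 14 other probes in all. Of these, 10 had a mean ratio on the same side of 0 as the probe used, those of Bmi1, Ash2l, Mtf2 and Rbbp7 among them. The 4 on the opposite side were 1 probe of Rbbp4, 1 of Pcgf5 (0.11 against −0.08) and both further probes of Ezh1 (−0.61 and −0.01 against 0.05). Suz12, Jarid2, Phf19, Phc1 and Phc2 were each tested by 1 probe. A further 13 member probes were too dim for the test. Among them, a second Phc1 probe, above background in 1 mutant and 2 wild type samples, gave −0.02 ± 0.46, and a second Pcgf2 probe with the same detection gave −0.09 ± 0.22 (SD, n = 3 each).

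**Figure D3:**
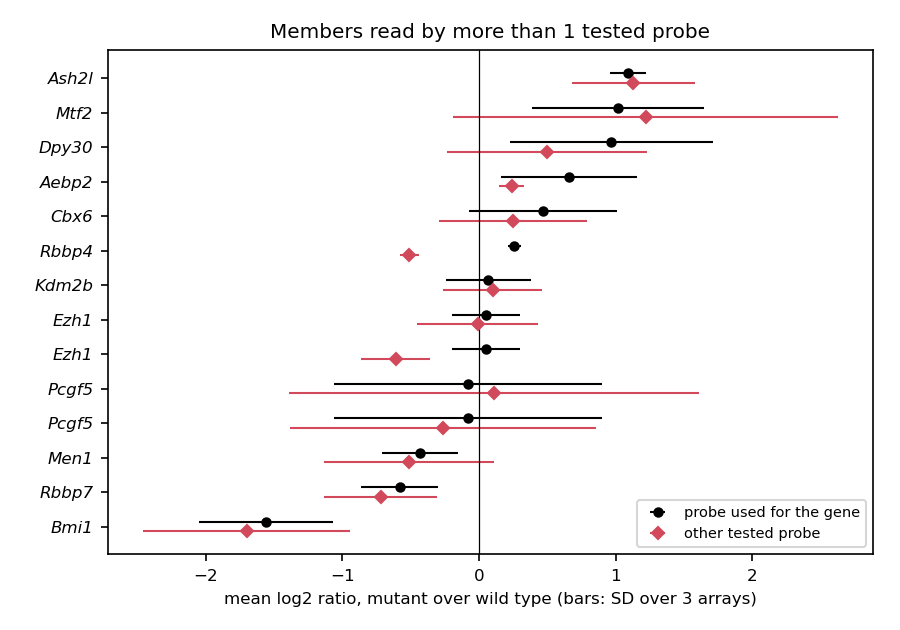
Mean log2 ratio of mutant over wild type (horizontal axis; bars are SD over 3 arrays) by the probe used for a gene and by each other tested probe of it; Ezh1 and Pcgf5 appear 2 times. Bmi1 lay below −1 and Ash2l and Mtf2 above 1 by both probes, and Rbbp4 lay on different sides of 0.

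Replicate 2, the array with swapped dyes, ranked the members differently from the others. Over the 36 members, the ratios of replicates 1 and 3 had a correlation of r = 0.925. The sign was the same in both for 32 members, and for 84.3% of all genes. Replicate 2 had a correlation of 0.362 with replicate 1 and of 0.398 with replicate 3. Its sign was that of replicate 1 for 24 members (51.3% of all genes) and that of replicate 3 for 26 (53.1% of all genes). The corresponding correlations over all genes were 0.879, 0.151 and 0.18. Genes on an array share its samples, dyes and normalization, so these correlations are descriptions. For 9 members, Ezh2, Bap1 and Kdm6b among them, replicates 1 and 3 had 1 sign and replicate 2 the other. Of all genes, 84.3% had 1 sign on replicates 1 and 3, but only 44.3% had 1 sign on all 3 arrays (63.9% of members). This pattern was therefore common among all genes and not particular to the members. Jarid2, Phf19, Mtf2 and Phc1 had their largest ratio on replicate 2, and Phc2, Rybp and Dpy30 their smallest.

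The calls depended on this array. Without replicate 2, limma with Benjamini-Hochberg adjustment placed 12 members on the higher side (25.6% of all genes were there) and 6 on the lower (21.7% of all genes). They were Phc1, Jarid2, Phf19, Suz12, Ash2l, Mtf2, Rybp, Dpy30, Pcgf3, Wdr5, Setd1a and Cbx6, and Pcgf1, Men1, Bap1, Kdm6b, Phc2 and Bmi1. Both remaining arrays have the mutant in Cy3, so genotype and dye cannot be told apart in them. With a dye term and all 3 arrays, 11 members lay on the higher side (15.8% of all genes) and 6 on the lower (14.9% of all genes). Phc1, Jarid2, Phf19, Suz12, Ash2l, Mtf2, Rybp, Dpy30 and Wdr5 were again on the higher side, with Aebp2 and Pcgf6, and Phc2 and Bmi1 again on the lower, with Ring1, Rnf2, Ash1l and Phc3. In that fit the residual spread comes from replicates 1 and 3 alone, so its calls and those without replicate 2 are not independent. Its ratio lies midway between replicate 2 and the mean of replicates 1 and 3. Ring1 and Rnf2 had −0.60 and −0.71 in it, and −0.14 and −0.04 without replicate 2. Without replicate 2, 4 members (11.1%) were past 2-fold on each side, where 16.4% of all genes were on the higher and 11.4% on the lower side: Suz12, Ash2l, Rybp and Dpy30, and Bmi1, Phc2, Bap1 and Kdm6b.

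**Figure D4:**
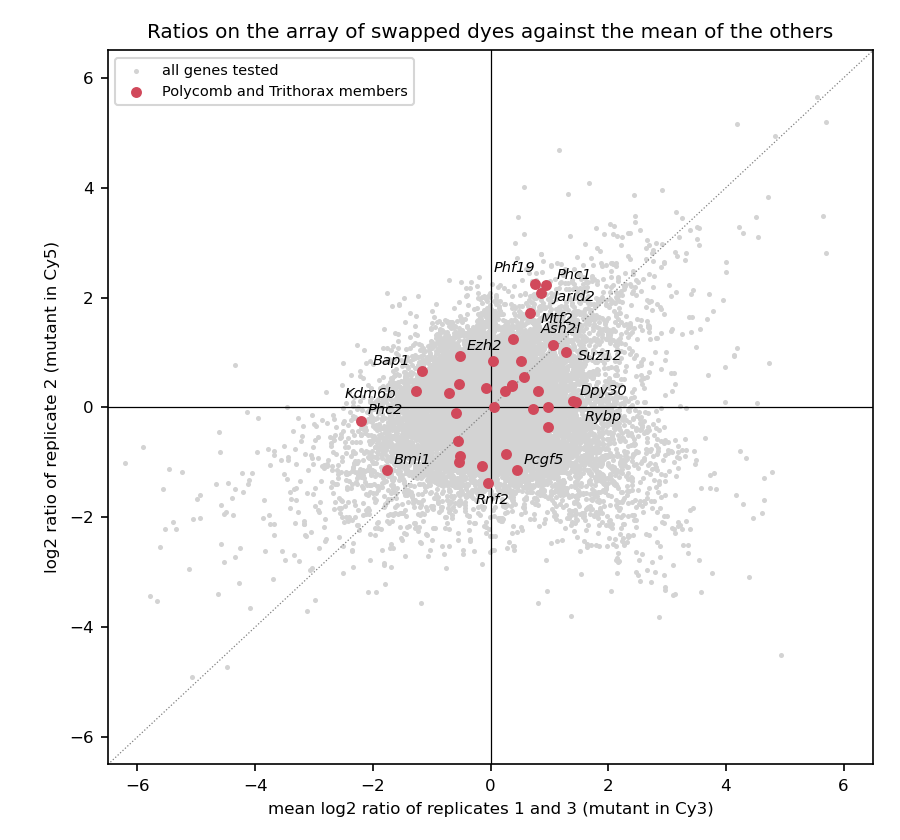
Log2 ratio of mutant over wild type on replicate 2 (vertical axis) against the mean of replicates 1 and 3 (horizontal axis) for all 15428 genes (grey) and the 36 members (red); the dotted line marks equal ratios. Ash2l and Suz12 lie near the line, Phf19, Phc1, Jarid2 and Mtf2 above it, and Ezh2, Bap1 and Kdm6b in the quadrant of opposite signs.

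Genes of the same systems beyond the 39 had medians near 0, and some were past 2-fold with 1 sign on all arrays. On the higher side these were 1 of 28 other Polycomb and 0 of 15 other Trithorax genes (6.99% of all genes). On the lower side they were 3 and 2 (6.7% of all genes). Of 28 other Polycomb genes tested, 0 passed limma's test in either direction, and their median log2 ratio was −0.01. Those with the smallest adjusted p included Yaf2, the paralogue of Rybp (−1.28 ± 0.26, SE, n = 3; adjusted p 0.077 by limma), Ezhip, an inhibitor of PRC2 (1.21, adjusted p 0.0843) and Sfmbt1 (−1.28, adjusted p 0.123). Of 15 other Trithorax genes tested, 0 passed, with a median of 0.04. Their 4 with the smallest adjusted p by limma were Nsd2, a methyltransferase of H3 lysine 36 (−1.36, adjusted p 0.0738), Kmt2e (−1.11, 0.115), Kmt2d, an H3 lysine 4 methyltransferase of enhancers (0.88, 0.24), and Hcfc1 (0.40, 0.431).

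Developmental regulator genes known as Polycomb targets in embryonic stem cells had a median log2 ratio of −0.87 over the 42 tested of 72 listed. A target was tested where it was bright in at least 1 genotype, so these 42 were partly chosen by the level compared. Without that filter 71 had a value, and their median was −0.27. Of these, 21 were past 2-fold on the lower side (3.68% of all genes without the filter) and 2 on the higher (3.62%). Where both genotypes had to be above background, 24 had a value, with a median of −0.93. Of those, 12 were past 2-fold on the lower side (5.64% of all genes in that setting) and 0 on the higher (6.57%). None of the 42 passed limma's adjusted test. A ratio of 2-fold or more with 1 sign on all arrays was seen for 20 on the lower side (6.7% of all genes) and 2 on the higher (6.99% of all genes). Those with the smallest adjusted p by limma were the endoderm regulators Sox7 (−2.51 ± 0.27, SE, n = 3; 0.0502) and Gata6 (−2.80 ± 0.40; 0.0558), the homeobox gene Meis2 (−2.57 ± 0.32; 0.0543), and Foxd3, a regulator of pluripotent cells and neural crest, on the other side (3.01 ± 0.36; 0.0507). Of the 42, 7 were also on the marker lists below. These 7 had a median log2 ratio of −2.51, and 6 were past 2-fold on the lower side. The 35 others had a median of −0.79, with 14 past 2-fold on the lower side and 2 on the higher. The part of cell type in either set was not tested.

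Markers of cell types differed between the same samples. The 12 tested pluripotent cell markers had a median log2 ratio of 2.50, with 11 means above 0 and 3 past the test on the higher side. On all arrays 9 of them were above 0 and 1 was below 0. The mean normalized log2 intensity of the list was 12.52 to 13.58 in the mutant samples and 11.00 to 11.44 in the wild type. The 18 extraembryonic endoderm markers all had means below 0, and 17 were below 0 on all arrays. Their median was −2.55 (9.80 to 12.54 against 12.91 to 14.23), with 1 past the test on the lower side. The 7 tested neural markers had a median of −2.03 (7.63 to 8.23 against 8.40 to 11.92), with 4 below 0 on all arrays and the signs of the other 3 differing between arrays. The 10 cardiac muscle markers had a median of −0.45 (7.97 to 8.99 against 8.85 to 9.90), with 5 below and 1 above 0 on all arrays and 1 past the test on the lower side. No tested marker on these lists was below background in all samples of a genotype. The part of these markers in the members' ratios was not tested. The targeted gene Dido1 had log2 ratios of 1.57, 2.16 and 1.48 by its brightest probe (adjusted p 0.058 by limma), and 2 other probes had means of −1.92 and 1.12. A further probe was not well above background in any wild type sample, and the mutant was at least 2.17-fold higher by it. Which of these probes lie in the truncated part was not settled here, so they do not check the genotype labels.

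**Figure D5:**
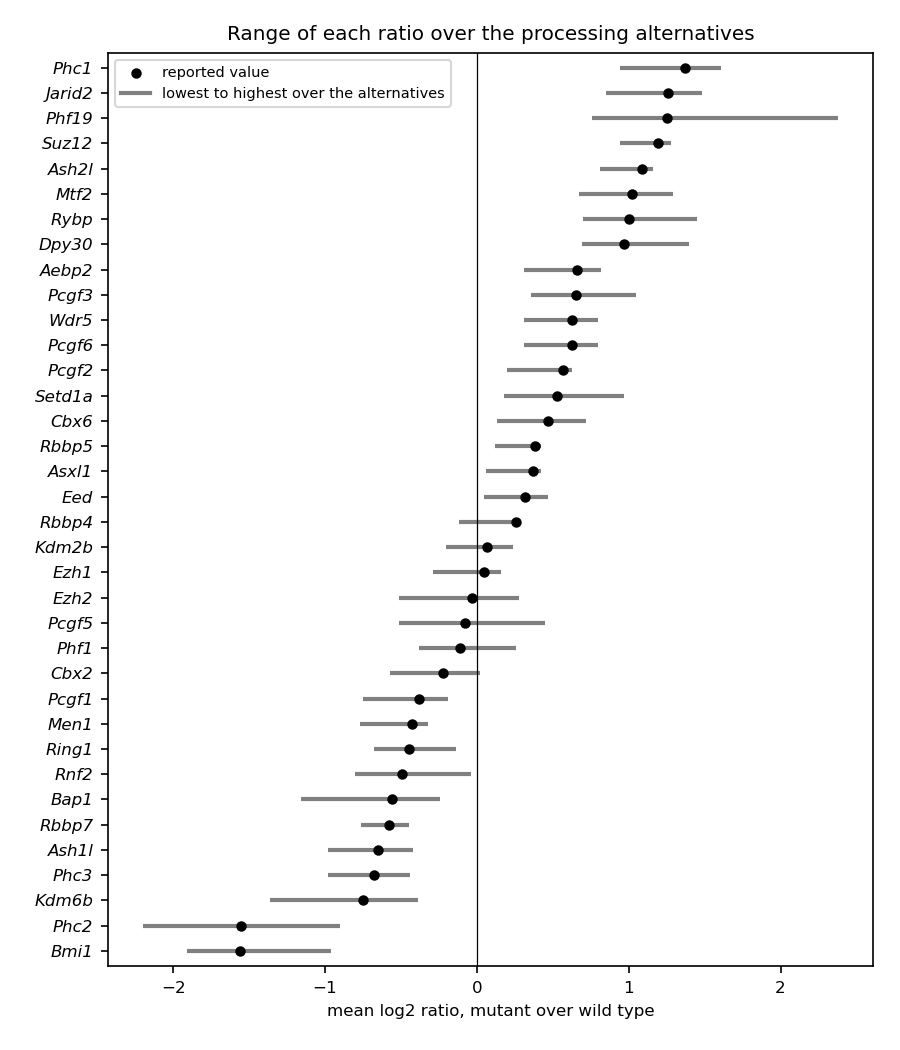
Mean log2 ratio of mutant over wild type (horizontal axis) of each member as reported (point) and its lowest to highest value over up to 14 other ways of processing (bar). The bars of the 8 members past 2-fold stay on 1 side of 0, from 0.76 to 2.38 for Phf19 and from −1.91 to −0.96 for Bmi1, and the bars of 7 members near 0, Ezh2 among them, cross it.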

How the data were processed

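RNA from 3 mutant and 3 wild type samples was measured on 3 dual-colour Agilent arrays that share a slide and a scan date, which leaves no batch to test. Per the file headers, Feature Extraction 10.7.3.1 made the deposited intensity values (mean signal and local background of each dye) and placed probes on mm9. The deposited value table holds the authors' log2 ratios, for which the submitters' processing notes name limma. Against the scanner values these ran from mutant over wild type, with medians of −0.04, 0.01 and −0.01 and centring unknown. The columns of replicates 1 and 3 each matched the other's scanner file better (r = 0.775 and 0.815) than their own (0.62 and 0.715).

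With R 4.3.3 and limma 3.58.1, mean signals were corrected by normexp (offset 50), leaving out 7 spots of replicate 3 whose local background exceeded 10 times the median, and normalized by loess. Outlier-flagged spots were left out. Levels are log2 intensities after loess and Aquantile scaling. Probes well above background in all samples of at least 1 genotype were kept (50 of 63 member probes), and the brightest stood for a gene. A fold given as a lower bound sets the bright genotype's mean level against the higher, per array, of the dim probe's level and the lowest level among probes above background, and is open to dye bias. Ratios were fitted with lmFit and eBayes (2 residual and 3.04 prior degrees of freedom), two-sided. Each array is a pair, so the ratio is blocked by replicate: deviations of paired samples from genotype means correlated at 0.515, 0.0159 and 0.462 over genes. Scripts were tested on simulated data. Figures used matplotlib 3.10.9.

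Every member could be named, with the 4 genes of smallest adjusted p in each other list, of which 1 is not reported here. Members, lists and tests were chosen with earlier results of these data known. The number of arrays limits the precision.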

Additional observations from a re-analysis of the deposited data

How the results depend on the processing

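Over 14 alternatives, 0 members passed the adjusted threshold except with a dye term (11 higher, 6 lower) and without replicate 2 (12 and 6, range over left-out replicates 0 to 12 and 0 to 6). All genes passing (32 higher, 14 lower) became 0 and 0 with all spots in the background model, 97 and 64 without background correction, 235 and 133 with Agilent's processed signals, 4 and 3 with median centring, 63 and 46 with scaling between arrays, 1 and 1 without a filter on dim probes, 3 and 1 with both genotypes above background, 67 and 36 with the mean over probes, 2444 and 2298 with a dye term, 0 and 0 in the authors' deposited values, and 3 to 3956 and 2 to 3342 when a replicate was left out. Without the replicate block, with channels as unpaired samples, they were 179 and 96, and no member's call changed. Members past 2-fold (6 and 2) were 3 and 1 with all spots in the background model (3.73% and 4.08% of all genes). They were 2 and 2 with median centring (4.51% and 11.5% of all genes). In the authors' values they were 5 and 0 (3.52% and 2.88% of all genes). When a replicate was left out, 4 to 6 were higher (7.07% to 16.4% of all genes) and 2 to 4 lower (6.07% to 11.4%). The member median (0.29) was 0.20 with all spots in the background model and with the mean over probes, 0.03 with median centring, 0.21 in the authors' values and 0.20 to 0.34 when a replicate was left out. Signs turned for 7 members near 0. Kdm2b became 0.00 (below 0 before rounding) with all spots in the background model and −0.20 with median centring, and ranged from −0.07 to 0.24 when a replicate was left out. Ezh1 became −0.06 with all spots in the background model, −0.29 with median centring and −0.19 with the mean over probes, and ranged from −0.09 to 0.16. Rbbp4 became 0.00 (below 0 before rounding) and −0.12 with median centring and the mean over probes. Ezh2 became 0.21 with a dye term and ranged from −0.51 to 0.28 when a replicate was left out. The corresponding ranges were −0.51 to 0.45 for Pcgf5, −0.38 to 0.26 for Phf1 and −0.54 to 0.02 for Cbx2. Beyond the construction of each alternative, the causes were not tested. Signal over background limits Cbx7 and Cbx8, and Phf19, Ash1l, Phc3 and Kdm6b, each dim in 1 sample.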
